A study of Mus musculus with 12 samples.

Results

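Expression of the nuclear genes for oxidative phosphorylation (OXPHOS) was examined in somatosensory cortex of P7 mice. The genes were the symbols that belong to the Ndufa, Ndufb, Ndufc, Ndufs and Ndufv series together with Ndufab1, the 4 Sdh genes, and every symbol that begins with Uqcr, Cox4 to Cox8 or Atp5. The rule matched 85 of the 24452 symbols listed, and 83 had at least 10 counts summed over the 12 libraries. Cox8b with 8 counts and Cox8c with 1 count were left out. Of the 83 genes, 38 were assigned by name to complex I, 4 to complex II, 8 to complex III, 16 to complex IV and 17 to complex V. A total of 82 genes passed the low-count filter and were tested, and Cox7b2 did not pass. The names do not match the complexes in every case. Ndufa4 was named for complex I and is now placed with complex IV, Atp5s and Atp5sl are not core subunits of ATP synthase, and Cyc1, a complex III subunit, lies outside the rule. No symbol with the mt- prefix of mitochondrially encoded genes was listed, so the subunits made inside the mitochondrion are not analysed here.

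Complexes I to IV form the respiratory chain of the inner mitochondrial membrane. Complex I takes electrons from NADH and complex II takes them from succinate, complex III passes them to cytochrome c, and complex IV hands them to oxygen. Complexes I, III and IV pump protons out of the matrix, and complex V, the ATP synthase, uses the return flow to make ATP. Neurons depend on this pathway for the ion gradients that signaling consumes.

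The 12 libraries came from male C57BL/6 mice in 4 groups of 3, and each library carried its own number in the labels (given here as the replicate). WT saline mice (replicates 1, 3 and 13) and WT ethanol mice (replicates 4, 5 and 14) had an intact Trp53 gene. KO saline mice (replicates 7, 8 and 9) and KO ethanol mice (replicates 10, 12 and 18) carried the Trp53 tm1Tyj disruption. It was in the germline, and thus in every cell type. KO mice came from heterozygous parents, as did the WT mice. The paper's ELISA found no significant change of total p53 with genotype. Saline or ethanol was given by intraperitoneal injection on postnatal day 7, and the cortex was collected 8 hours after the last injection. Nothing in the sources used here ties libraries to litters, so a p-value covers only the spread between these libraries. Because whole tissue was sequenced, fewer cells of a type and less RNA per cell cannot be told apart.

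WT saline replicate 1 and KO ethanol replicate 12 stood apart from the other libraries. Genes with transcripts shorter than 1000 bases held 29.8% of the counts in WT saline replicate 1 and 20.1% in KO ethanol replicate 12, against 5.84% to 13.3% in the other 10 libraries. The total count was between 719735 (KO ethanol replicate 12) and 17066400 (KO saline replicate 8), and WT saline replicate 3 had 1953150. Library names began with L for KO ethanol replicate 12 and WT saline replicate 3, which were the shallowest, and with P for the other 10. Trp53 itself was not lower in the KO libraries. Its CPM (the normalised count used throughout, scaled to library size with TMM factors) was 3.68 to 26.2 over the 6 WT libraries and 11.1 to 28.7 over the 6 KO libraries. Reads from outside the disrupted part are included, so this count does not check the genotype labels. Values without these libraries are given beside the results they moved most.

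Per unit of transcript length, the most abundant OXPHOS gene was found for each complex as assigned by name. It was Ndufa4 (now placed with complex IV) in complex I, Sdhb in complex II, Uqcrh in complex III, Cox6c in complex IV and Atp5l in complex V. Mean RPKM over the 12 libraries was 1267 ± 452 for Ndufa4 and 1264 ± 549 for Cox6c (SD, n = 12). These are small subunits of the inner membrane, and their levels differed by less than their spread. Atp5l, which encodes subunit g of ATP synthase, had an RPKM of 952 ± 318. Uqcrh, the hinge protein of complex III, had 700.0 ± 202. Sdhb, the iron-sulfur subunit of succinate dehydrogenase, was the highest of its complex at 206 ± 65.0. On the RPKM scale the top member of complex II was thus below those of the other complexes. Atp5b, the catalytic beta subunit of ATP synthase, reached an RPKM of 765 ± 226. Cox4i1, a nuclear-encoded regulatory subunit of complex IV in its widely expressed form, reached 853 ± 218.

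Several complex IV subunits have a second gene used mainly in other tissues, and these were low in the cortex. Cox4i2, the lung form, made up a median of 0.21% of the summed RPKM of Cox4i2 and Cox4i1. Cox6a2, the heart and muscle form, made up 2.30% of its pair with Cox6a1, with a range of 0.91% to 10.7% over the libraries. For WT mice its share was 7.01% ± 3.23 under saline and 2.08% ± 0.54 under ethanol, and for KO mice 1.91% ± 1.12 under saline and 2.25% ± 1.99 under ethanol (SD, n = 3 each). Cox7a1, another muscle form, made up 0.59% of its pair with Cox7a2, and Cox6b2, a testis form, 0.34% of its pair with Cox6b1. Ndufa4l2, a relative of Ndufa4, made up 0.13% of that pair. The genes for subunit c of ATP synthase, which encode the same mature protein, were closer in level. Atp5g1 made up 41.0% of its sum with Atp5g3, and Atp5g2 made up 39.2% of its own sum with Atp5g3.

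The share of a library's counts that fell in the 83 genes showed how the libraries differed. It was 5.36%, 1.89% and 2.74% in WT saline replicates 1, 3 and 13, and 1.25%, 2.07% and 1.91% in WT ethanol replicates 4, 5 and 14. In KO saline replicates 7, 8 and 9 it was 1.71%, 1.54% and 1.40%, and in KO ethanol replicates 10, 12 and 18 it was 1.70%, 4.01% and 1.68%. WT saline replicate 1 and KO ethanol replicate 12 were thus the highest, and the other 10 libraries lay between 1.25% and 2.74%. Group means for WT mice were 3.33% ± 1.81 under saline and 1.74% ± 0.44 under ethanol, and for KO mice 1.55% ± 0.15 under saline and 2.46% ± 1.34 under ethanol (SD, n = 3 each). Without WT saline replicate 1 the WT saline mean was 2.31%, and without KO ethanol replicate 12 the KO ethanol mean was 1.69%. All 5 complexes were highest in WT saline replicate 1 except complex II, which was as high in WT saline replicate 13 (0.123% in both). Complex I took 1.69% of the counts in WT saline replicate 1 and 0.36% to 1.28% in the other libraries.

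**Figure D1:**
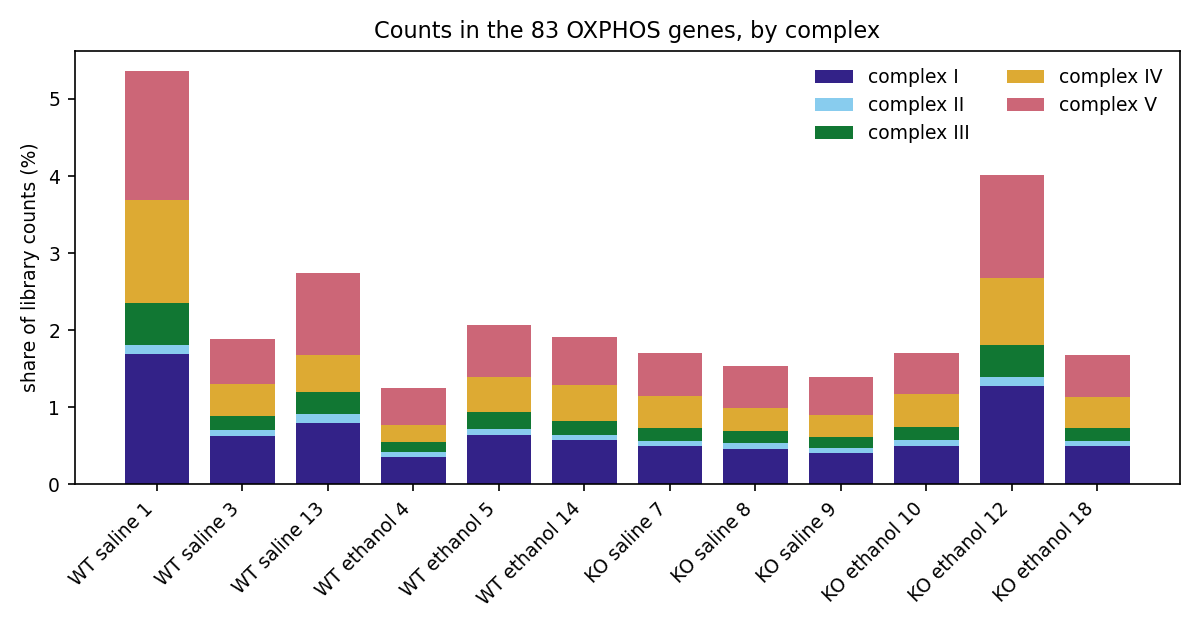
Share of each library's counts (%) that fell in the 83 OXPHOS genes, stacked by complex, with 1 bar per library. WT saline replicate 1 (5.36%) and KO ethanol replicate 12 (4.01%) stand above the other 10 libraries, which lie between 1.25% and 2.74%.

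The first comparison asked what ethanol did in WT mice. At the adjusted level of 0.30 that the study used, 66 of 82 OXPHOS genes were lower after ethanol and 0 were higher in the edgeR quasi-likelihood test, where 10.4% of all 14739 genes tested were called lower and 12.1% higher. At an adjusted p under 0.05 there were 0 in edgeR and 3 in DESeq2, against 11 and 488 of all 14739 genes. At an unadjusted p under 0.05 there were 62 in edgeR, all lower (8.36% of all genes). The median log2 fold change of the OXPHOS genes was -1.53, against 0.06 for all genes, and 80 of the 82 values were below 0. For 33 of 82 genes every WT ethanol library lay below every WT saline library, which held for 8.30% of all genes. The decline was spread over the complexes. It was called for 32 of 38 complex I genes (median -1.59), 3 of 4 complex II genes (-1.32), 6 of 8 complex III genes (-1.41), 12 of 15 complex IV genes (-1.49) and 13 of 17 complex V genes (-1.64).

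These calls rested on few libraries. With only the WT libraries in the fit, 0 were called (54 at an unadjusted p under 0.05) and the median was -1.57. Of all 14006 genes, 39 were then called. Without WT saline replicate 1, 0 of the 82 genes were called (4 at an unadjusted p under 0.05) and the median was -0.73, and 1.30% of all genes were then called in either direction. There were 77 calls without WT saline replicate 3, 18 of them at an adjusted p under 0.05. Of all 14996 genes, 7304 were then called in either direction, and 1151 reached an adjusted p under 0.05. Without WT ethanol replicate 4, 0 were called (71 of all 14908 genes) and the median was -1.37. Without WT ethanol replicate 14, 3 were called (833 of all 15026 genes) and the median was -1.62. On the deposited RPKM, limma called 1 of 83 OXPHOS genes, against 311 of all 16030 genes. The OXPHOS median was -0.32, and 15 of 83 genes were then at or above 0.

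In complex I the smallest p for ethanol in WT mice belonged to Ndufa12, an accessory subunit (mm10 chr10:94199009-94220949). Its CPM was 868, 227 and 279 in WT saline and 70.1, 132 and 163 in WT ethanol libraries, so the groups did not overlap. The log2 fold change was -1.91 (SE 0.60, edgeR adjusted p = 0.195), and it was -1.07 without WT saline replicate 1 (adjusted p = 0.471). Ndufa4 was uneven within WT saline mice. Its CPM was 3505, 317 and 662 there and 221, 671 and 596 after ethanol, and the groups overlapped. The log2 fold change of Ndufa4 was -1.59 (SE 0.74, edgeR adjusted p = 0.27), but it was -0.0042 without WT saline replicate 1 (adjusted p = 0.999), and on log2(RPKM + 1) it was 0.62, the opposite direction. Ndufv1, which binds NADH and its flavin, fell by 1.10 on the log2 scale (SE 0.44, edgeR adjusted p = 0.226). Ndufab1, the mitochondrial acyl carrier protein, fell by 1.23 (SE 0.53, adjusted p = 0.246). With WT saline replicate 1 left out, Ndufv1 was at -1.12 and Ndufab1 at -0.50, and neither was called (adjusted p = 0.423 and 0.693). By contrast Ndufs1, the largest core subunit of complex I, gave -0.21 (SE 0.39, adjusted p = 0.793), with a CPM of 271, 101 and 199 in WT saline and 140, 170 and 184 in WT ethanol libraries. Its groups overlapped, and its value was 0.10 without WT saline replicate 1. Ndufa10, chosen after its values were seen, had the only complex I value above 0 (0.03, SE 0.49, adjusted p = 0.983).

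Complex II doubles as an enzyme of the citric acid cycle, and 3 of its 4 subunits were called. Sdhc, a membrane anchor, had a CPM of 296, 142 and 267 in WT saline and 87.2, 113 and 60.1 in WT ethanol libraries, without overlap. Its log2 fold change was -1.44 (SE 0.47, edgeR adjusted p = 0.2), and it was still called when length and GC trends were removed (-1.70, adjusted p = 0.203). It was not called without WT saline replicate 1 (-1.27, adjusted p = 0.394) or on log2(RPKM + 1) (-0.72, limma adjusted p = 0.428). Sdhd, the other anchor, gave -1.30 (SE 0.51, adjusted p = 0.223), with a CPM of 807, 125 and 443 against 146, 226 and 188, and WT saline replicate 3 was the lowest of the 6. For Sdhb the log2 fold change was -1.34 (SE 0.63, adjusted p = 0.273). When WT saline replicate 1 was left out, Sdhd was at -0.65 and Sdhb at -0.99, and neither was called (adjusted p = 0.589 and 0.562). Sdha, the flavoprotein that oxidizes succinate, had a CPM of 340, 191 and 304 in WT saline and 234, 210 and 197 in WT ethanol libraries. The groups overlapped, and the value of -0.38 (SE 0.33, adjusted p = 0.544) did not pass the test.

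In complex III the leading gene by p was Uqcrfs1, the Rieske iron-sulfur protein. Its CPM was 636, 178 and 355 in WT saline and 125, 200 and 113 in WT ethanol libraries, and WT saline replicate 3 lay within the ethanol range. The log2 fold change was -1.42 (SE 0.49, edgeR adjusted p = 0.208), and -0.90 without WT saline replicate 1 (adjusted p = 0.486). Uqcrh had the largest decrease of any OXPHOS gene in this comparison (mm10 chr4:116066965-116075071). It had a CPM of 3872, 271 and 779 in WT saline and 154, 439 and 302 in WT ethanol libraries, so a single library accounted for most of the WT saline mean. Its log2 fold change of -2.46 (SE 0.88, adjusted p = 0.208) became -0.85 without WT saline replicate 1 (adjusted p = 0.643). Uqcrc1, a core protein of complex III, gave -0.78 (SE 0.51, adjusted p = 0.409).

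Complex IV was led by Cox6a2, the muscle form noted above. The CPM of Cox6a2 was 47.4, 29.3 and 14.8 in WT saline and 7.13, 9.08 and 10.0 in WT ethanol libraries, without overlap. Its log2 fold change was -1.80 (SE 0.54, edgeR adjusted p = 0.189), and -1.33 without WT saline replicate 1 (adjusted p = 0.412). Cox4i1, its widely expressed neighbor in the complex, had a CPM of 1940, 692 and 1198 in WT saline and 324, 644 and 431 in WT ethanol libraries. These groups did not overlap either, and the log2 fold change was -1.45 (SE 0.67, adjusted p = 0.265), though it was -1.05 without WT saline replicate 1 (adjusted p = 0.556) and 0.04 on log2(RPKM + 1). Cox6c gave -1.82 (SE 0.75, adjusted p = 0.235), with a CPM of 4193, 515 and 573 in WT saline and 169, 644 and 687 in WT ethanol libraries. Without WT saline replicate 1 its value was -0.14, and on log2(RPKM + 1) it was 0.23. Cox8a, the smallest subunit of the complex, did not pass the test (-0.72, SE 0.53, adjusted p = 0.466) and was above 0 both without WT saline replicate 1 (0.16) and on log2(RPKM + 1) (0.87).

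In ATP synthase the peripheral stalk gene Atp5h had the smallest p (mm10 chr11:115415697-115419920). Its CPM was 2240, 435 and 628 in WT saline and 163, 338 and 290 in WT ethanol libraries, without overlap, and the log2 fold change was -2.06 (SE 0.73, edgeR adjusted p = 0.208). Without WT saline replicate 1 it was -1.03 (adjusted p = 0.538). Atp5l gave -2.23 (SE 0.82, adjusted p = 0.214) in the full fit, and -0.60 without that library (adjusted p = 0.717). For the catalytic head the values were smaller. Atp5a1 (alpha subunit) had a value of -0.88 (SE 0.50, adjusted p = 0.346) and Atp5b had -0.92 (SE 0.58, adjusted p = 0.392), and neither passed the test. The CPM of Atp5b was 2929, 782 and 2847 in WT saline and 998, 1265 and 1195 in WT ethanol libraries. WT saline replicate 3 was the lowest of the 6, and on log2(RPKM + 1) the values of Atp5a1 and Atp5b were 0.34 and 0.70.

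**Figure D2:**
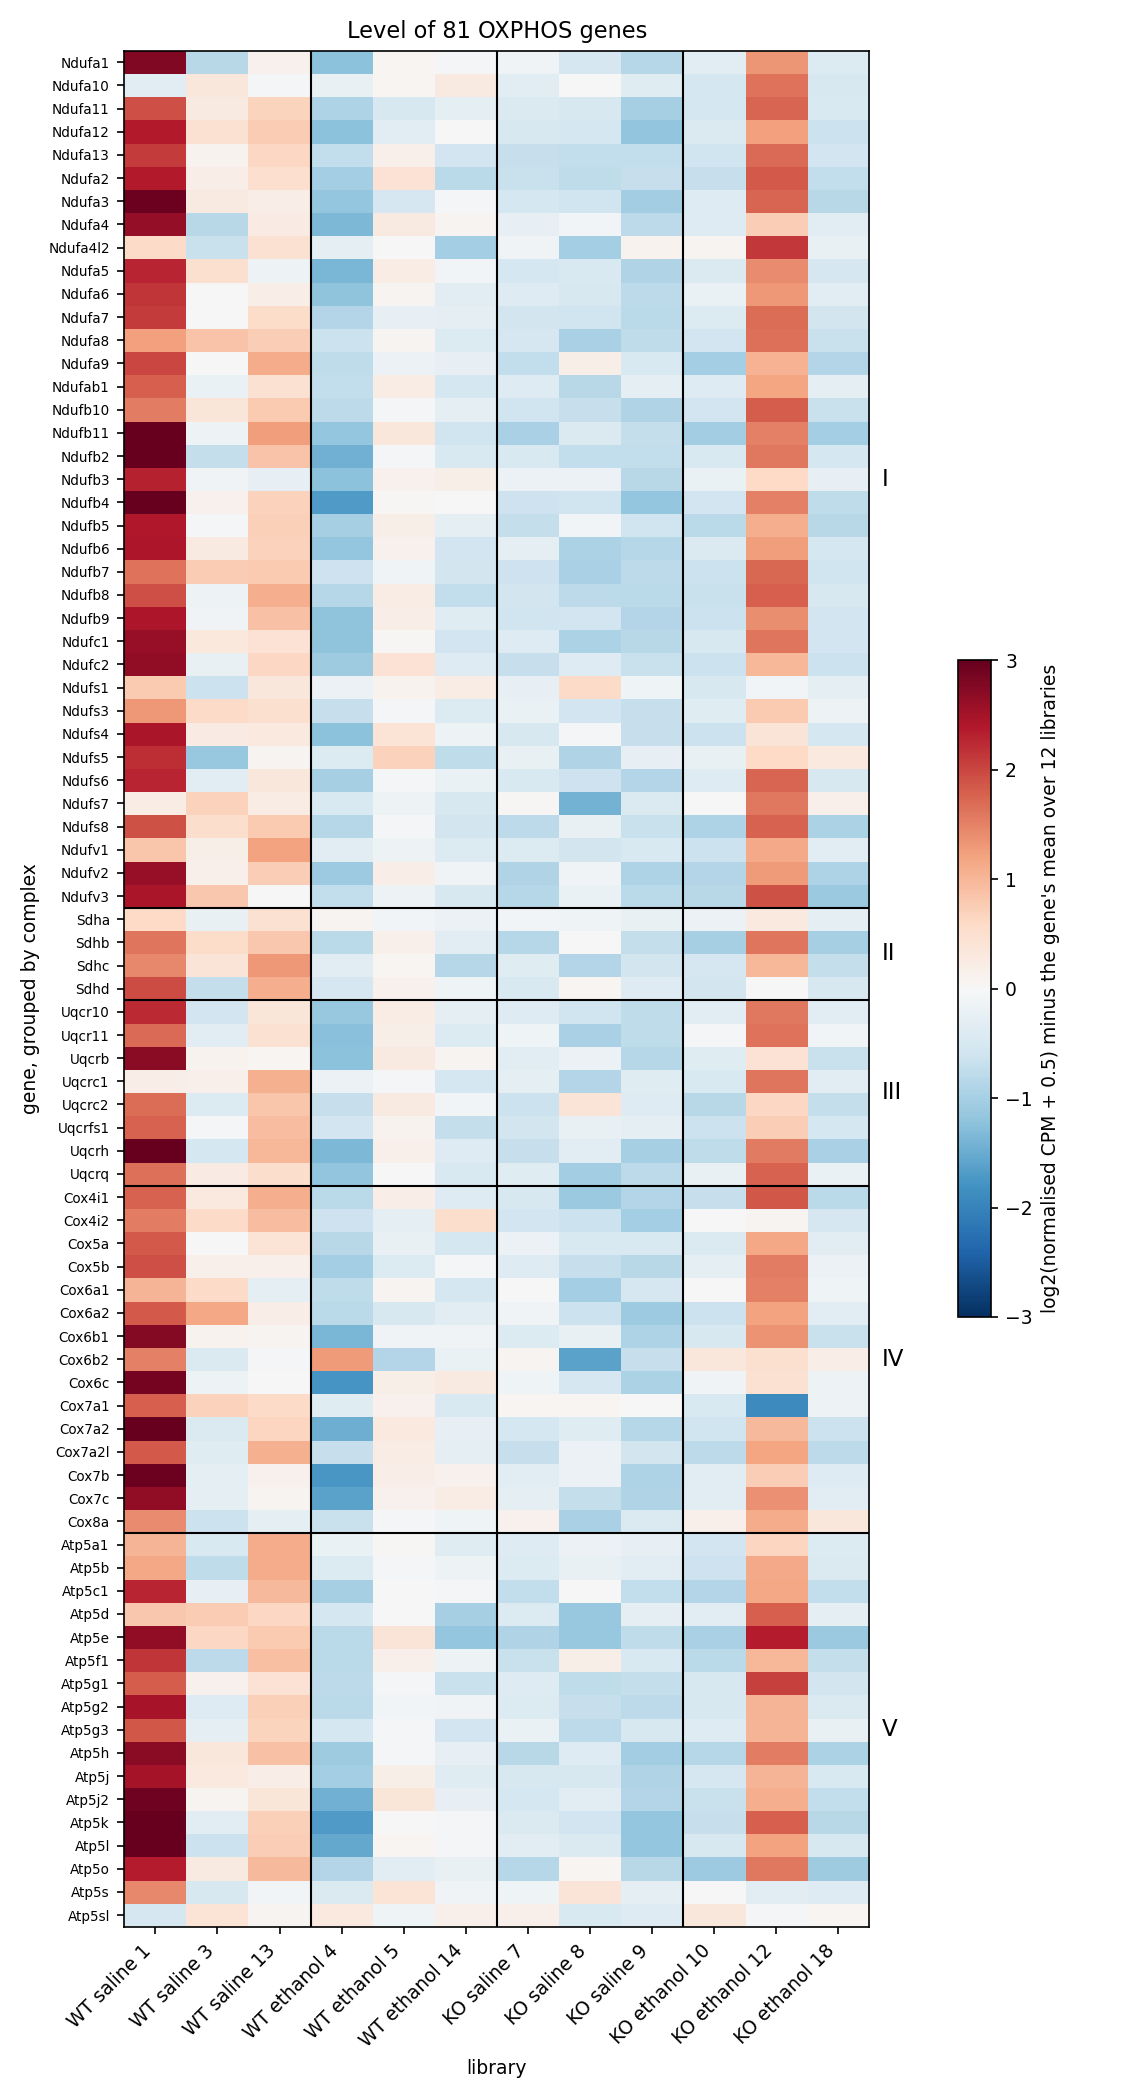
Level of 81 of the 82 tested OXPHOS genes (rows, grouped by complex) in the 12 libraries (columns), as log2(normalised CPM + 0.5) minus the gene's mean over the libraries, with colors capped at -3 and 3. WT saline replicate 1 and KO ethanol replicate 12 are above the mean for most genes in every complex.

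The second comparison set KO against WT mice under saline, and it shares the WT saline libraries with the first. The test called 73 of 82 OXPHOS genes lower in KO saline mice and 0 higher, where 13.4% of all genes were called lower and 12.4% higher. An adjusted p under 0.05 was reached by 0 in edgeR and 26 in DESeq2, against 8 and 717 of all 14739 genes. In edgeR an unadjusted p under 0.05 was reached by 68, all lower (10.5% of all genes). All 82 values were below 0, with a median of -1.76 against 0.04 for all genes. In 51 of 82 genes every KO saline library lay below every WT saline library, which held for 10% of all genes. The calls covered 35 of 38 complex I genes, 3 of 4 complex II genes, 8 of 8 complex III genes, 13 of 15 complex IV genes and 14 of 17 complex V genes, and the medians by complex ran from -1.47 in complex II to -1.84 in complex I. With only the saline libraries in the fit, 65 of 82 were called, against 2531 of all 13951 genes, and the median was -1.76. Even so, few libraries decided the calls. There were 0 calls without WT saline replicate 1 (11 at an unadjusted p under 0.05, median -0.87, with 0.246% of all genes called). There were also 0 without KO saline replicate 8 (median -1.85) and 0 without KO saline replicate 9 (-1.67). In each of those fits 9 of all genes were called. Without KO saline replicate 7, 37 were called (median -1.86), against 1437 of all 15023 genes. Leaving out WT saline replicate 3 gave 78, 59 of them at an adjusted p under 0.05. Of all 14996 genes, 7556 were then called in either direction, and 2177 reached an adjusted p under 0.05. On the RPKM, limma called 2 of 83 OXPHOS genes with a median of -0.41, against 351 of all 16030 genes.

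Cox4i2 had the smallest p of the OXPHOS genes under saline. Its CPM was 5.51, 2.57 and 3.42 in WT saline and 0.89, 0.82 and 0.53 in KO saline libraries, so the groups did not overlap at a low level. The log2 fold change was -2.37 (SE 0.61, edgeR adjusted p = 0.16). It kept its direction and call on log2(RPKM + 1) (-1.69, limma adjusted p = 0.222) and with the length and GC trend removed (-1.46, edgeR adjusted p = 0.267). Sdhc was the leading gene of complex II, with a CPM of 84.1, 58.6 and 74.3 in KO saline libraries, all below the WT saline values. Its log2 fold change was -1.70 (SE 0.47, edgeR adjusted p = 0.176), and -1.97 with the length and GC trend removed (adjusted p = 0.211). In complex I, Ndufa12 had a CPM of 118, 115 and 72.4 in KO saline libraries and a log2 fold change of -2.17 (SE 0.61, adjusted p = 0.176). Without WT saline replicate 1 the values were -2.04 for Cox4i2, -1.52 for Sdhc and -1.33 for Ndufa12, and none was called (adjusted p = 0.396, 0.396 and 0.432).

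Uqcrh and Atp5h led complexes III and V. Uqcrh had a CPM of 242, 313 and 197 in KO saline libraries, and WT saline replicate 3 (271) lay within that range. Its log2 fold change was -2.71 (SE 0.89, edgeR adjusted p = 0.176), and -1.09 without WT saline replicate 1 (adjusted p = 0.547). Atp5h had a CPM of 193, 262 and 167 in KO saline libraries, all below the WT saline values, and a log2 fold change of -2.41 (SE 0.74, adjusted p = 0.176), or -1.38 without WT saline replicate 1 (adjusted p = 0.46). Ndufs1 had -0.16 (SE 0.39, adjusted p = 0.842) and Sdha had -0.47 (SE 0.33, adjusted p = 0.444), and neither passed the test. Atp5a1 was called at -0.98 (SE 0.50, adjusted p = 0.282), but it was -0.83 without WT saline replicate 1 (adjusted p = 0.54) and 0.40 on log2(RPKM + 1). Likewise Ndufa4 was called at -1.76 (SE 0.74, adjusted p = 0.222) and was -0.17 without that library (adjusted p = 0.92) and 0.82 on log2(RPKM + 1).

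**Figure D3:**
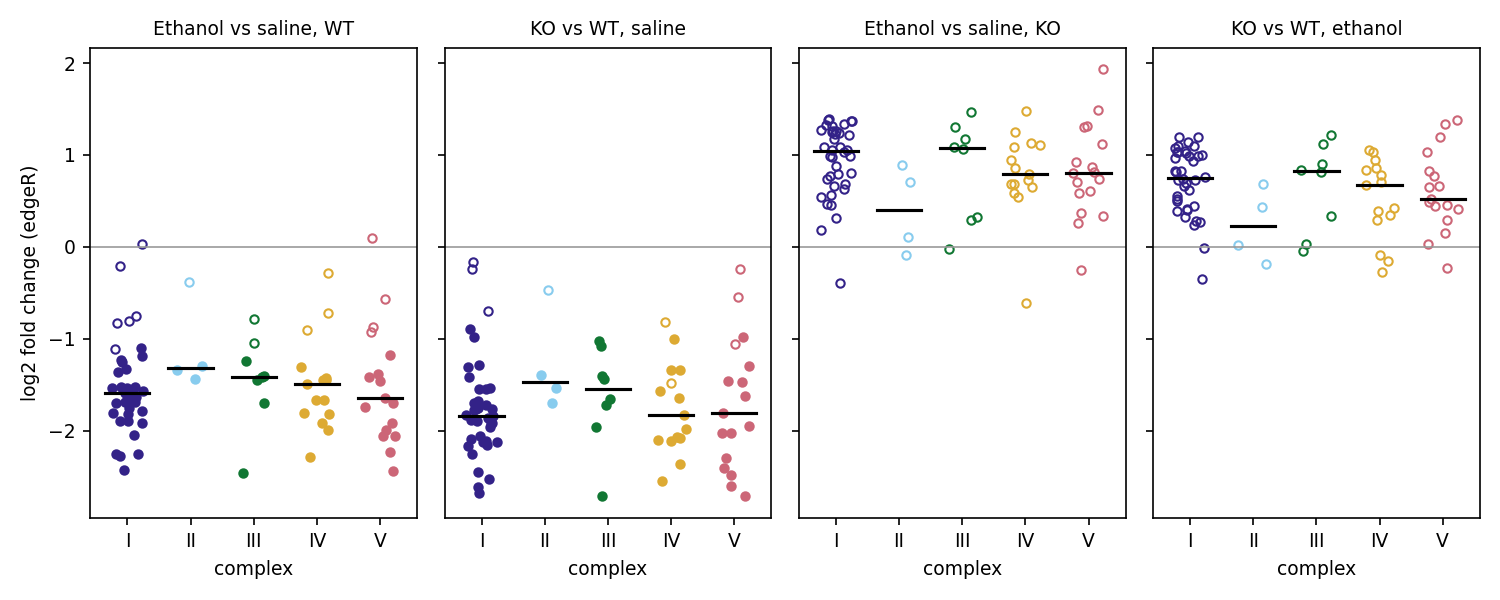
Log2 fold change (edgeR) of the 82 OXPHOS genes in 4 comparisons, by complex. Filled points passed an adjusted p under 0.30, open points did not, and black lines are medians. Values lie below 0 for 80 genes after ethanol in WT mice and for all 82 in KO against WT mice under saline, and mostly above 0, with no gene called, in the comparisons that use KO ethanol libraries.

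Ethanol in KO mice gave no call. With edgeR 0 of 82 OXPHOS genes passed the adjusted level of 0.30, and 0% of all genes did. At an unadjusted p under 0.05 there were 12 OXPHOS genes, all higher after ethanol, where 1.15% of all genes were higher at that level. DESeq2 also called 0 (3 of all 14739 genes), with 18 OXPHOS genes at an unadjusted p under 0.05. The share of all genes at that level in DESeq2 was not counted. The median log2 fold change was 0.88, and 77 values were above 0. Every KO ethanol library lay above every KO saline library for 9 of 82 genes (3.89% of all genes) and below for 1 (6.87%). The positive median rested on KO ethanol replicate 12. Without it the median was 0.09, 36 of the 82 values were below 0 and 0 genes had an unadjusted p under 0.05. Ndufs7, a core iron-sulfur subunit of complex I, shows the pattern. Its CPM was 72.5, 26.0 and 52.1 in KO saline and 71.0, 211 and 78.8 in KO ethanol libraries, with KO ethanol replicate 12 far above the rest. Its log2 fold change was 1.23 (SE 0.46, edgeR adjusted p = 0.999), and 0.58 without that library. Uqcrq, a small complex III subunit, had a CPM of 184, 115 and 137 in KO saline and 204, 804 and 208 in KO ethanol libraries. All 3 KO ethanol values of Uqcrq were higher, and the log2 fold change was 1.47 (SE 0.57, adjusted p = 0.999), or 0.50 without KO ethanol replicate 12. Cox4i1 gave 1.48 (SE 0.67) with that library and 0.04 without it, and Atp5d, the delta subunit of ATP synthase, gave 1.32 (SE 0.53) and 0.27. Sdhc had a value of 0.70 (SE 0.47), and -0.02 without it.

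KO against WT mice under ethanol likewise gave 0 calls in edgeR and in DESeq2, and 0% of all genes were called by edgeR. Ndufs7 and Atp5d were the 2 OXPHOS genes with an unadjusted p under 0.05 in edgeR, both higher in KO mice, where 0.977% of all genes were higher at that level. In DESeq2, 6 OXPHOS genes had an unadjusted p under 0.05. Their direction and the share of all genes at that level in DESeq2 were not counted. For 2 of 82 genes every KO ethanol library lay above every WT ethanol library, which held for 4.04% of all genes. The median log2 fold change was 0.69, but it was -0.18 without KO ethanol replicate 12, and 1.04 without KO ethanol replicate 10. The value of Atp5d was 1.20 (SE 0.53, edgeR adjusted p = 0.982) with all libraries and 0.15 without KO ethanol replicate 12. For Sdhb the corresponding values were 0.69 (SE 0.62, adjusted p = 0.982) and -0.72. Sdhb CPM was 140, 271 and 193 in WT ethanol and 122, 737 and 122 in KO ethanol libraries, so the deeper KO ethanol libraries were the lowest of the 6.

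Whether ethanol acted differently in the genotypes was tested by the interaction, the log2 effect of ethanol in the KO less the effect in the WT. It was called for 59 of 82 OXPHOS genes, all with a higher value in KO mice, where 5.64% of all genes were called in that direction. None of the 59 had an adjusted p under 0.05 in edgeR. In DESeq2, 19 OXPHOS genes did, against 255 of all 14739 genes. In edgeR, 65 of the 82 had an unadjusted p under 0.05 with a higher value in KO mice (7.5% of all genes). The median was 2.51, against -0.11 for all genes. By complex, 30 of 38 complex I, 2 of 4 complex II, 6 of 8 complex III, 9 of 15 complex IV and 12 of 17 complex V genes were called. Among the most abundant members, Uqcrh had an interaction of 3.52 (SE 1.22, edgeR adjusted p = 0.252), Atp5l of 3.15 (SE 1.13, adjusted p = 0.259) and Sdhb of 2.23 (SE 0.89, adjusted p = 0.28). Ndufa4 (2.04, SE 1.03, adjusted p = 0.368) and Cox6c (2.40, SE 1.05, adjusted p = 0.306) did not pass. No OXPHOS gene was called without WT saline replicate 1 (median 1.55), without KO ethanol replicate 12 (1.58), without WT ethanol replicate 4 (2.32) or 14 (2.66), or without KO saline replicate 8 (2.52) or 9 (2.47). These fits called between 0 and 112 of all genes. With the first letter of the library name as a covariate 0 were also called (median 2.06), as were 0 of all 14739 genes. With both libraries that stand apart left out, an alternative chosen after seeing the data, 0 were called (29 of all 15007 genes) and the median was 0.66.

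Most of the OXPHOS genes have a short transcript. Their median length was 732 bases, against 2805 bases for all genes with at least 10 counts, and 55 of the 81 tested genes with a known length were shorter than 1000 bases. Genes outside OXPHOS differed by length in the same direction. After ethanol in WT mice, the median log2 fold change of other genes was -1.07 below 1000 bases (415 of 891 called lower), -0.45 from 1000 to 2000 bases, 0.14 from 2000 to 5000 bases and 0.55 above 5000 bases. In KO against WT mice under saline the medians of the same classes were -1.26, -0.55, 0.13 and 0.61. Once WT saline replicate 1 was left out they were -0.41, -0.31, 0.078 and 0.49 after ethanol in WT mice and -0.63, -0.40, 0.076 and 0.55 under saline. The OXPHOS genes below 1000 bases had a median of -1.67 after ethanol in WT mice (49 of 55 called lower), and those of 1000 bases or more had -1.26 (16 of 26). Across genes, Spearman's rho between length and log2 fold change after ethanol in WT mice was 0.51 in 81 OXPHOS genes and 0.48 in all 14563 genes with a length. Genes are not independent replicates, and all of these values come from the same libraries.

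**Figure D4:**
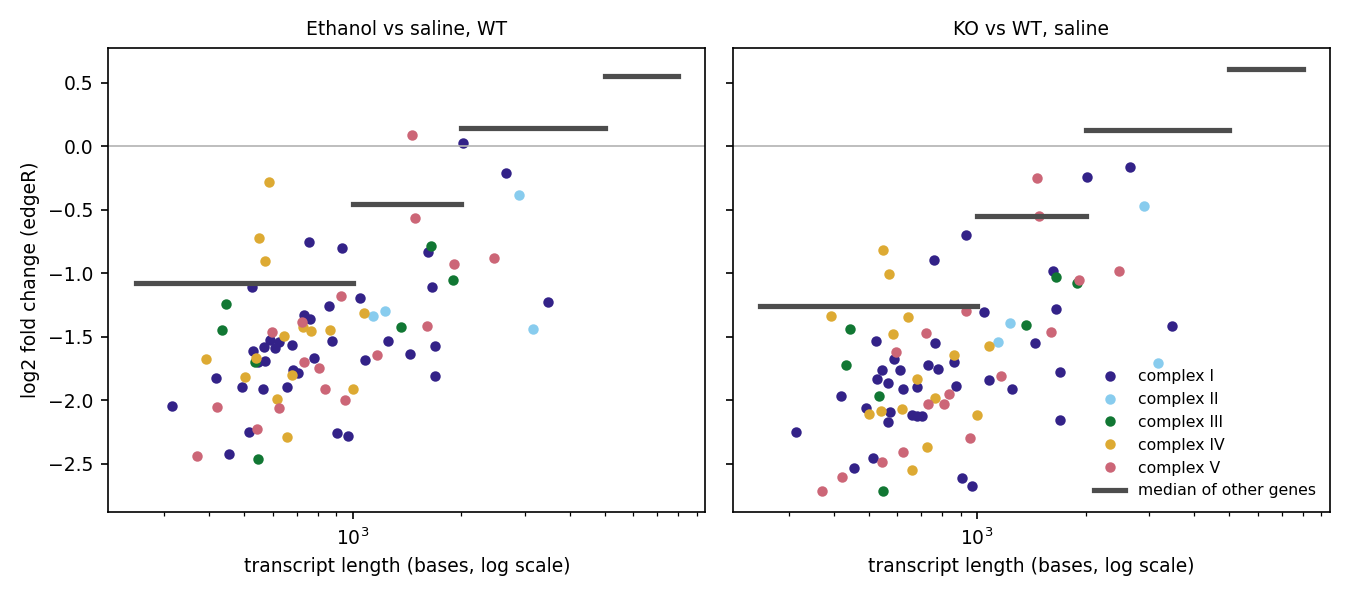
Log2 fold change (edgeR) of OXPHOS genes against transcript length in bases (log axis), for ethanol against saline in WT mice (left) and KO against WT mice under saline (right). Points are OXPHOS genes colored by complex, and grey bars are the medians of all other genes in 4 length classes, drawn from 250 bases in the shortest class and to 8000 bases in the longest. Other genes below 1000 bases had medians of -1.07 and -1.26, and those above 5000 bases had 0.55 and 0.61.

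When trends with length and GC content were removed library by library before the fit, 13 of 82 OXPHOS genes were called after ethanol in WT mice, with a median of -0.72 against -0.16 for all genes. Counting both directions, this was near the background, since 16% of all genes were then called. Of all genes 9.55% were called lower, and 76 of the 82 OXPHOS values were below 0. For KO against WT mice under saline, 9 were called, again near the background of 11.3% in both directions, with a median of -0.76 against -0.16. There 7.04% of all genes were called lower, and 75 of the 82 OXPHOS values were below 0. The interaction then had 0 calls (0.19% of all genes were called), 16 OXPHOS genes at an unadjusted p under 0.05 and a median of 1.12 against 0.26. The median deviation of the OXPHOS genes from their means over the 12 libraries was 2.04 on the log2 scale in WT saline replicate 1, where other genes below 1000 bases were at 1.49. In KO ethanol replicate 12 the values were 1.26 and 0.73, in WT saline replicate 3 they were 0.02 and -0.05, and in WT ethanol replicate 4 they were -0.84 and -0.62. The other 8 libraries lay between -0.76 and 0.61 for OXPHOS genes and between -0.53 and 0.35 for other short genes.

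**Figure D5:**
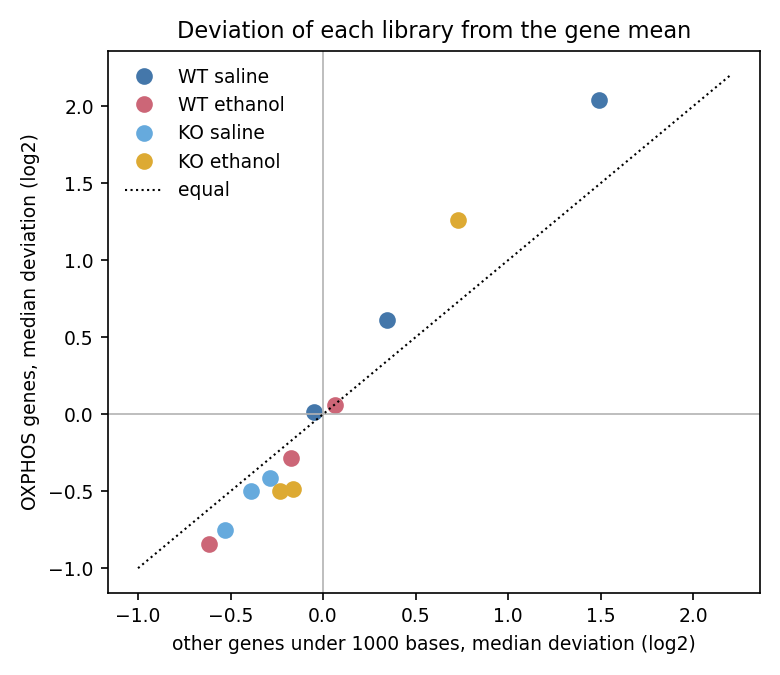
Median deviation (log2) of the OXPHOS genes from their means over 12 libraries, against that of other genes shorter than 1000 bases, with 1 point per library colored by group and a dotted line of equality. WT saline replicate 1 (1.49 and 2.04) and KO ethanol replicate 12 (0.73 and 1.26) are at the upper right, and in both the OXPHOS genes deviated more than the other short genes.

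Other gene lists were read against the 10.4% of all genes called lower after ethanol in WT mice. In that comparison 15 of 44 assembly factors of the OXPHOS complexes were called lower (median -0.75). Of 6 electron carriers and associated genes, 3 were called lower, with a median of -1.26. Cyc1, the cytochrome c1 subunit of complex III, was among them (-1.34, SE 0.45, edgeR adjusted p = 0.208), as was Cycs, the somatic cytochrome c (-1.51, SE 0.67, adjusted p = 0.251). Atpif1, the inhibitor of ATP synthase, was just outside the level of the call (-1.52, SE 0.79, adjusted p = 0.31). Sco2, which delivers copper to complex IV and is a known p53 target, was lower after ethanol in WT mice (-1.33, SE 0.54, adjusted p = 0.23) and in KO against WT mice under saline (-1.37, SE 0.54, adjusted p = 0.203). In the citric acid cycle with pyruvate dehydrogenase 3 of 17 genes were called lower (median -0.35), in glycolysis 2 of 16 (-0.47), which is near the background, and among mitochondrial carriers, porins and import genes 6 of 13 (-0.81). Mitochondrial ribosomal protein genes were lower in 43 of 77 (median -0.92). Of these lists the lowest median was not mitochondrial. Cytosolic ribosomal protein genes, whose transcripts are short (median 799 bases), were lower in 75 of 81 with a median of -2.15, and 19 of 38 proteasome subunits were lower and 1 higher (-0.90). No gene of these lists was called without WT saline replicate 1 (1.30% of all genes were), and the medians ran from -1.06 for cytosolic ribosomal protein genes to 0.025 for regulators of mitochondrial gene expression. Without that library Cyc1 was at -1.18, Sco2 at -1.15, Cycs at -0.45 and Atpif1 at 0.12.

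In KO against WT mice under saline, where 13.4% of all genes were called lower, the counts were as follows. Called lower were 17 of 44 assembly factors and 4 of 6 electron carriers and associated genes. So were 3 of 17 citric acid cycle genes, 6 of 16 glycolytic genes and 7 of 13 carriers and import genes. Ribosomal protein genes were called lower for 52 of 77 mitochondrial and 78 of 81 cytosolic ones. Of 38 proteasome subunits, 20 were called lower and 1 higher. Again 0 genes of these lists were called without WT saline replicate 1, with medians from -1.33 for cytosolic ribosomal protein genes to 0.30 for the regulators. Of 12 regulators of mitochondrial gene expression tested, 0 were called lower and 1 was called higher after ethanol in WT mice. These counts were near the background, since 10.4% of all genes were called lower and 12.1% higher. Under saline 0 of the 12 were called in either direction, where 13.4% of all genes were called lower and 12.4% higher. Ppargc1a, the coactivator that drives mitochondrial biogenesis, gave 0.27 (SE 0.38, edgeR adjusted p = 0.725) after ethanol in WT mice. Its CPM was 34.5, 26.7 and 20.4 in WT saline and 34.9, 33.8 and 29.3 in WT ethanol libraries, and the groups overlapped. Nrf1, the gene of nuclear respiratory factor 1, gave 0.18 (SE 0.37, adjusted p = 0.819), and Tfam, which packages and transcribes mitochondrial DNA, gave -0.55 (SE 0.41, adjusted p = 0.473). For Gabpa, a subunit of nuclear respiratory factor 2, the value was 0.66 (SE 0.42, adjusted p = 0.396), and for Esrra, an estrogen-related receptor, it was -0.41 (SE 0.47, adjusted p = 0.651). These regulators have long transcripts, with a median of 3706 bases.

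Promoters were examined because most of the genes were called in the same direction. A promoter entry in RefSeq (GRCm38.p6, 250 bases before to 50 bases after the start) was matched for 69 of the 83 genes, with 75 promoters. The palindromic consensus of nuclear respiratory factor 1, with its central base left free, was found on either strand in 24% of the OXPHOS promoters and in 4.60% of all 32851 promoters. The ETS letters CCGGAAG were in 21.3% and 8.86%, the YY1 letters AAGATGGCG in 12% and 1.40%, and the letters AAGGTCA of estrogen-related receptors in 10.7% and 4.72%. Overlap between different motifs was not removed. These are descriptions of letters and not of binding. The stretches that follow are 1 for each complex in which a gene had the nuclear respiratory factor 1 letters upstream and clear of annotated protein-coding exons, taking the gene with the highest mean RPKM. Each is written from 5′ to 3′ on the gene's strand, with the matched letters in capitals.
Ndufb4 (complex I, minus strand, chr16:37654490-37654618): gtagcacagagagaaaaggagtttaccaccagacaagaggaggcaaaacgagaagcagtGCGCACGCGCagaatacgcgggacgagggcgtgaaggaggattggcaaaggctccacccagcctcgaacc
Cox6a1 (complex IV, minus strand, chr5:115349006-115349180): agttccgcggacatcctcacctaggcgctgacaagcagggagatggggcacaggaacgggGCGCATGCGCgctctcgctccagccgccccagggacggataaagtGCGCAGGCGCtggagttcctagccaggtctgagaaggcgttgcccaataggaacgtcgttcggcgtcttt
Atp5h (complex V, minus strand, chr11:115419991-115420120): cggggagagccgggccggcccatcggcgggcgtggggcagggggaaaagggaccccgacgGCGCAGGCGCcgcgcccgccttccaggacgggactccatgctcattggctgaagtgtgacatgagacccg

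The medians of genes with and without the letters differed little for nuclear respiratory factor 1 and more for estrogen-related receptors. After ethanol in WT mice the median log2 fold change was -1.53 in the 17 genes with the nuclear respiratory factor 1 letters and -1.58 in the 51 tested genes with a promoter that lacks them. In KO against WT mice under saline both medians were -1.76. The 8 genes with the letters of estrogen-related receptors had medians of -2.14 after ethanol in WT mice and -2.51 under saline, against -1.55 and -1.76 in the 60 without them. For the ETS letters (16 genes with, 52 without) the medians were -1.71 against -1.55 and -1.97 against -1.74, and for the YY1 letters (8 and 60) -1.61 against -1.53 and -1.82 against -1.76. These groups are small, share genes and were not tested. Ndufb4, an accessory subunit of complex I, had a CPM of 1907, 242 and 360 in WT saline and 68.2, 228 and 221 in WT ethanol libraries, without overlap. The fold change of Ndufb4 on the log2 scale was -2.28 (SE 0.80, edgeR adjusted p = 0.208), or -0.82 without WT saline replicate 1 (adjusted p = 0.619). Cox6a1, the widely expressed partner of Cox6a2, had a CPM of 661, 484 and 269 in WT saline and 190, 343 and 225 in WT ethanol libraries. Those groups overlapped, and its value of -0.90 (SE 0.51, adjusted p = 0.347) did not pass, so genes with these letters were found on both sides of the call.

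Markers of some cell types were called in the comparisons in which OXPHOS genes were called, and those of others were not. After ethanol in WT mice 10.4% of all genes were called lower and 12.1% higher. In KO against WT mice under saline the shares were 13.4% and 12.4%. The 5 erythroid markers, hemoglobin genes and Alas2, were all called lower after ethanol in WT mice and in KO against WT mice under saline. In WT mice their summed CPM was 337 to 1319 under saline and 50.2 to 145 under ethanol, and in KO mice 35.9 to 99.3 under saline and 29.1 to 766 under ethanol. The 5 neuronal markers summed to 7879 to 8339 (saline) and 4030 to 6334 (ethanol) in WT mice and to 5551 to 6834 (saline) and 4636 to 10380 (ethanol) in KO mice, and 1 of 5 was called lower in each of these comparisons. Choroid plexus markers summed to 3.09 to 118 in WT saline libraries and to 4953, 20.6 and 56.7 in WT ethanol replicates 4, 5 and 14. In KO saline libraries they summed to 27.0 to 2238, and both ranges overlapped that of WT saline. Of these markers 2 of 3 were called higher after ethanol in WT mice and 2 of 3 in KO against WT mice under saline. Inhibitory neuron markers summed to 128 to 165 in WT saline and 291 to 344 in WT ethanol libraries, without overlap, and 2 of 3 were called higher after ethanol in WT mice and 1 of 3 under saline (191 to 224 in KO saline libraries). Markers of excitatory neurons (3 genes) and astrocytes (5 genes) had 0 calls in both comparisons. Oligodendrocyte lineage markers were called higher for 1 of 6 genes after ethanol in WT mice and 2 of 6 under saline. Endothelial markers were called higher for 1 of 4 in each, and microglial markers lower for 1 of 5 in each. Of 4 mural and fibroblast markers, 0 and 1 were called lower. Marker calls without WT saline replicate 1 were not counted. The part of these cell types in the OXPHOS result was not tested.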

How the data were processed

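RNA-Seq was performed on 12 libraries of P7 mouse somatosensory cortex, 3 from each group. The authors used TopHat with Bowtie2 for alignment to mm10 and Partek Flow for quantification against RefSeq. Their deposited estimated counts are given per transcript, are not scaled and are partly fractional. The deposited RPKM values looked quantile normalized by the authors, since 99.7% of 20504 ranks were equal within 0.1% over the libraries.

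Counts were summed per symbol, rounded and analysed with edgeR 4.0.16 under R 4.3.3, using filterByExpr at its defaults, TMM normalization and the quasi-likelihood test on group means. The 5 contrasts were tested over 14739 symbols, two-sided, with Benjamini-Hochberg adjustment, and the study's adjusted level of 0.30 was used for calls. Coordinates are those of the deposited files (mm10), and transcript lengths and GC content came from GENCODE. Alternatives were DESeq2 1.42.0, limma 3.58.1 on RPKM, other scalings, filters, samples and covariates, and removal of length and GC trends with splines of 5 degrees of freedom. Python 3.11.15 was used for summaries, and the fit was tested on simulated data.

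The genes and lists were chosen with earlier results of these data known. Genes were named by a rule (the highest mean RPKM and the smallest p per complex, fixed core subunits and tissue isoforms). Ndufa10 and Ndufb4 lie outside it, and Ndufb4 was named for its printed promoter. The values of 1 OXPHOS gene are not reported here. Laser microdissection and hole-punch samples could not be assigned to libraries.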

Additional observations from a re-analysis of the deposited data

Results flagged for a closer look

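The effect of ethanol on the OXPHOS genes differed between the genotypes in the interaction test, which called 59 of 82 genes at an adjusted p under 0.30 with a higher value in KO mice, where 5.64% of all genes were called in that direction. Among the most abundant gene of each complex, the interaction was 3.52 for Uqcrh, 3.15 for Atp5l and 2.23 for Sdhb on the log2 scale. No OXPHOS gene was called in this test once WT saline replicate 1 or KO ethanol replicate 12 was left out, and the medians were then 1.55 and 1.58 against 2.51. Of all genes, 0.133% and 0.233% were then called.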

How the results depend on the processing

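Calls depended on single libraries and on the input and test. The limma fits used the deposited RPKM, which looked quantile normalized, so they differ from edgeR on counts in scaling and test as well as unit. Leaving out 1 library at a time gave 0 to 77 called OXPHOS genes and medians of -1.91 to -0.73 for ethanol in WT mice, 0 to 78 and -2.09 to -0.87 for KO against WT mice under saline, and 0 to 75 and 1.55 to 2.91 for the interaction. The highest counts came without WT saline replicate 3, where 7304, 7556 and 5064 of all 14996 genes were called. For ethanol in KO mice the medians ran from 0.092 to 1.21 and for KO against WT mice under ethanol from -0.18 to 1.04, with 0 calls. No paired analysis was possible because the groups share no replicate number. KO ethanol replicate 12, with 719735 counts, limits the precision of every KO ethanol value.

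For ethanol in WT mice, 42 genes were called with library size in place of TMM, which moved the median of all genes to 0.49 (0.49 also for KO against WT mice under saline, and -0.52 for the interaction, where the OXPHOS median was 1.74). Of all 14739 genes, 4051 were then called for ethanol in WT mice. With limma on log2(RPKM + 1) and log2(RPKM + 0.1), 1 and 0 genes were called for ethanol in WT mice (medians -0.32 and -0.32), 2 and 1 for KO against WT mice under saline (-0.41 and -0.40), and 0 and 0 for the interaction (0.59 and 0.59). Of all 16030 genes, 311 and 108, 351 and 122, and 14 and 5 were then called in the same order. With only the compared groups in the fit, 0 were called for ethanol in WT mice (39 of all 14006 genes). For KO against WT mice under saline, 65 were called in such a fit (2531 of all 13951 genes). With length and GC trends removed, the counts were 13 (median -0.72), 9 (-0.76) and 0 (1.12) in those 3 comparisons. Of all genes, 16%, 11.3% and 0.19% were then called in either direction. Leaving out WT saline replicate 1 and KO ethanol replicate 12 together, chosen after seeing the data, gave 30 (-0.73), 42 (-0.87) and 0 (0.66), and medians of 0.073 for ethanol in KO mice and -0.19 for KO against WT mice under ethanol. Of all 15007 genes, 2512, 2640 and 29 were then called in the first 3 comparisons. Without the libraries whose names begin with L those last medians were 0.074 and -0.19, whereas 79, 80 and 73 genes were called in the other 3 comparisons (medians -1.96, -2.13 and 1.97), 69 and 71 of them at an adjusted p under 0.05 in the first pair. Of all 14967 genes, 8295, 8435 and 4322 were then called, 3220 and 3782 at an adjusted p under 0.05 in the first pair. DESeq2 called 64, 69 and 65, with 3, 26 and 19 at an adjusted p under 0.05. Of all 14739 genes it called 4114, 4379 and 2678, with 488, 717 and 255 at that level. The name letter as a covariate left 0 calls in the interaction, also over all genes. The causes were not tested.

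Some named genes changed direction. On log2(RPKM + 1), values for ethanol in WT mice were 0.34 for Atp5a1, 0.70 for Atp5b, 0.037 for Cox4i1, 0.23 for Cox6c, 0.87 for Cox8a, 0.62 for Ndufa4, 0.12 for Ndufs1 and 0.26 for Sdha. For KO against WT mice under saline they were 0.40 for Atp5a1, 0.70 for Atp5b, 0.016 for Atp5l, 0.42 for Cox6c, 0.90 for Cox8a, 0.82 for Ndufa4, 0.15 for Ndufs1 and 0.22 for Sdha. Under ethanol Sdhb was at -0.11, and in the interaction Cox6c was at -0.12 and Ndufa4 at -0.71. With a pseudocount of 0.1 these values were the same at this rounding, except 0.63 for Ndufa4 after ethanol in WT mice and 0.91 for Cox8a under saline. In the order ethanol in WT mice, then KO against WT mice under saline, library size without TMM gave 0.34 and 0.38 for Ndufs1 and 0.12 and 0.044 for Sdha, and removal of length and GC trends gave 0.21 and 0.28 for Cox8a and, under saline, 0.027 for Ndufa4. Without both libraries that stand apart, Cox8a was at 0.16 and 0.072 and Ndufs1 at 0.10 and 0.16. Leaving out 1 library at a time gave -1.10 to 0.16 and -1.18 to 0.074 for Cox8a and -0.56 to 0.10 and -0.50 to 0.16 for Ndufs1, with the highest values without WT saline replicate 1. Without both, Ndufa4 was at -0.012 in the interaction. Sdhc for ethanol in KO mice was -0.039 without both and -0.039 without the L libraries, and -0.020 (without KO ethanol replicate 12) to 1.03 with 1 library left out. Sdhb for KO against WT mice under ethanol was -0.74 and -0.73 in the same settings, -0.72 (without KO ethanol replicate 12) to 1.13 with 1 library left out, and -0.14 with the name letter as a covariate. Over the named genes, the complex medians and the group shares of counts, 1425 values were counted as unchanged. For a gene this meant the same direction and side of the call, also where it was never called. For a median or share it meant a shift smaller than the SD between libraries of a group. Among gene values 244 lost and 33 gained the call, and 93 medians or shares moved further. A changed direction was counted for 61 values, but not for medians in comparisons without a called OXPHOS gene.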
